A study of Canis lupus familiaris and Eptesicus fuscus and Equus caballus with 6 samples.

Results

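Fragments of 5S and 5.8S ribosomal RNA were followed in small RNA libraries from adult testes of dog, horse and a bat, the big brown bat Eptesicus fuscus. A listed sequence was taken as a fragment when it matched the rRNA exactly over its whole length on either strand, and identical sequences were summed. The rule found 1744 sequence entries among the 7545354 listed over the 3 libraries, holding 447817 of 82987900 reads. They are 831 different fragments, 726 of 5S and 105 of 5.8S rRNA.

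Testes were snap frozen, total RNA was taken with TRIzol, and the small RNA fraction was read as 50 nt single-end reads. Each species had 1 small RNA library, which the labels call a piRNA fraction. There was therefore no replicate check and no test between species, and differences between species, animals and library preparations cannot be told apart. The deposited lists held 41328689 reads for dog, 5828928 for bat and 35830283 for horse, only of lengths from 24 to 32 nt, so a level in rpm is a number of reads per 1000000 listed reads of those lengths. Intervals are exact Clopper-Pearson 95% intervals for shares and levels and conditional binomial ones for ratios. They cover counting error only, since PCR reads without molecular identifiers are not independent molecules.

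5S rRNA is a small RNA of the large ribosomal subunit, made by RNA polymerase III from its own gene clusters, apart from the other rRNAs. Its ends pair with each other in a terminal stem. 5.8S rRNA sits in the same subunit, is cut from the RNA polymerase I precursor that also gives 18S and 28S rRNA, and pairs with 28S rRNA. In testis the length range of these libraries is that of piRNAs, the small RNAs bound by PIWI proteins, and pieces of abundant RNAs can be listed beside them.

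5S positions below are counted from base 1 at the 5′ end of a 5S sequence of 121 nt that was rebuilt from the deposited reads. The 3 most-read 5S fragments of the bat library came from the 3′ end of the molecule and are shown because they held 47.8% of its 5S reads. The capitals mark bases before base 91.

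5S 89 to 120: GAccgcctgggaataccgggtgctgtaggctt
5S 90 to 120: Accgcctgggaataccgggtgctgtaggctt
5S 91 to 120: ccgcctgggaataccgggtgctgtaggctt

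5.8S fragments fell in 3 short windows, at the 5′ end (bases 1 to 27), in the middle (bases 57 to 91) and near the 3′ end (35 to 5 bases from it, counting the last base as 1). The 3 most-read fragments of dog lay in the first window. Their capitals mark bases that not all 3 share.

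5.8S 1 to 27, dog: CgactcttagcggtggatcactcggcT
5.8S 2 to 27, dog: gactcttagcggtggatcactcggcT
5.8S 1 to 26, dog: Cgactcttagcggtggatcactcggc

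The 3 most-read 5.8S fragments of bat lay in the middle and last windows. The capital marks the base by which the middle fragments differ.

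5.8S 58 to 82, bat: gagaattaatgtgaattgcaggacA
5.8S 58 to 81, bat: gagaattaatgtgaattgcaggac
5.8S 35 to 8 from the 3′ end, bat: ttcctcccggggctacgcctgtctgagc

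5S fragments were most abundant in the bat library, where they made up 6.09% of all listed reads. The bat library held 354744 reads of 630 different 5S fragments, or 60859 rpm (60665 to 61054). The horse library held 50530 reads of 564 fragments, or 1410 rpm (1398 to 1423). The dog library held 26218 reads of 440 fragments, or 634 rpm (627 to 642). The order was thus bat, horse, dog, and no pair of intervals overlapped. The level in bat was 95.9 times that in dog (94.7 to 97.1) and 43.2 times that in horse (42.8 to 43.6), while horse exceeded dog by 2.22 times (2.19 to 2.26). Both listed strands are counted here. With only sequences listed in RNA sense the order was the same and the ratios were 77.6, 12.3 and 6.33.

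The bat reads were also concentrated among the most-read sequences of their library. Of the 100 most-read sequences of the bat library, 14 were 5S fragments, and the leading fragments 89 to 120, 90 to 120 and 91 to 120 ranked 2, 3 and 7. In dog and horse no 5S fragment was among the 100 most-read sequences, and the best ranks were 423 and 222. Within the 5S reads themselves, the 3 leading fragments took 65.1% (dog), 47.8% (bat) and 51.8% (horse).

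5.8S fragments were less abundant than 5S fragments in every library, and they were found in bat and dog. The bat library held 14577 reads of 94 different 5.8S fragments, or 2501 rpm (2460 to 2542). The dog library held 1748 reads of 16 fragments, or 42.3 rpm (40.3 to 44.3). With both listed strands counted, bat thus exceeded dog by 59.1 times (56.3 to 62.2). All bat reads were listed as the reverse complement, so with only RNA sense counted the direction turned, to 0 reads in bat and 39.7 rpm in dog, at least 77.1-fold higher in dog. The horse library had 0 reads in the 3 windows among 35830283, and a count of 0 allows up to 3 reads, or 0.0837 rpm. Against that floor, over both listed strands, the level was at least 29868-fold higher in bat and at least 505-fold higher in dog. With only RNA sense counted bat and horse both had 0 reads, so no ratio between them can be given.

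The 5S reads came mainly from the ends of the molecule, and which end led differed between bat and the other libraries. Fragments were called 5′ fragments when they started at bases 1 to 3, 3′ fragments when they ended in the last 3 bases, and internal otherwise. 5′ fragments took 73.1% of the 5S reads of dog (72.5 to 73.6) and 60.1% of those of horse (59.7 to 60.5), but 8.88% of those of bat (8.79 to 8.98). 3′ fragments took 86.6% in bat (86.5 to 86.7), as against 24.6% in horse (24.2 to 24.9) and 10.8% in dog (10.4 to 11.2). Internal fragments took 4.54% in bat, less than the 15.3% of horse and the 16.1% of dog. These shares count both listed strands, and with only sequences listed in RNA sense they turn over: the 5′ share is then 91.1% in bat, 5.54% in horse and 0% in dog, and the 3′ share 0%, 71.6% and 50.5%.

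With both listed strands counted, the excess of bat over the other libraries was present in all 3 regions and was largest at the 3′ end. 3′ fragments stood at 52692 rpm in bat, 346 in horse and 68.5 in dog, so that bat exceeded dog by 770 times (742 to 799) and horse by 152 times (149 to 155). 5′ fragments stood at 5406 rpm in bat, 848 in horse and 464 in dog, so that bat exceeded dog by 11.7 times (11.5 to 11.9) and horse by 6.38 times (6.28 to 6.48). For internal fragments the ratio was 27.0 to dog (26.1 to 27.9) and 12.8 to horse (12.4 to 13.1). Horse exceeded dog by 5.06 times at the 3′ end, 1.83 times at the 5′ end and 2.11 times internally. With only RNA sense counted the excess at the 3′ end turned: bat had 0 reads there, and the level was at least 673-fold higher in horse and at least 75.0-fold higher in dog. The excess of bat at the 5′ end and internally kept its direction, with an internal ratio of 14.0 to dog and 4.77 to horse and a 5′ ratio of 202 to horse and at least 74467 to dog, where 0 reads were in RNA sense.

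The leading bat fragments, chosen because they were the most read in bat, show the same difference over both listed strands. They were listed as the reverse complement in bat and in RNA sense in dog and horse. With only RNA sense counted bat has 0 reads of them. Fragment 89 to 120 had 69190 reads in bat (11870 rpm), 462 in dog (11.2 rpm) and 365 in horse (10.2 rpm). Fragment 91 to 120 had 38170 reads in bat (6548 rpm), 594 in dog (14.4 rpm) and 1247 in horse (34.8 rpm). Fragment 90 to 120 had 62291 reads in bat (10687 rpm), 292 in dog (7.07 rpm) and 376 in horse (10.5 rpm). In bat all 3 were far above every 5′ fragment, and in dog and horse all 3 were below the leading 5′ fragments.

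The 3′ fragments varied at both ends. Their end fell on base 120 in 77.2% (dog), 70.7% (bat) and 61.4% (horse) of the 3′ fragment reads. The remainder divided differently: the end at base 121 held 36.4% in horse, 18.3% in dog and 5.13% in bat, and the end at base 119 held 2.24%, 4.49% and 24.1%. All of these bases are T in the listed sequence, U in the RNA.

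The leading starts of the 3′ fragments lay nearer the 3′ end in horse than in bat and dog. In bat they were at base 89 (31.2%), 90 (27.5%) and 91 (18.1%), and in dog at base 91 (26.3%), 89 (17.3%) and 90 (11.8%). In horse they were at base 94 (26.6%), 97 (18.0%) and 98 (12.8%). Horse 3′ fragments were accordingly shorter, with a mean of 26.7 nt against 28.9 nt in dog and 30.0 nt in bat. The 24 nt length, the shortest listed, held 24.4% of the horse 3′ fragment reads, so shorter ones may lie outside the list. In bat 31 nt (30.1%) and 32 nt (27.4%) led, at the upper limit of the list.

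Fragments that end just before the 3 leading 3′ starts of each library were few, except at base 96 in horse. In bat 25 reads ended at base 88, beside 96774 that started at base 89. In dog 2 reads ended at base 90, beside 747 that started at base 91. In horse 2 reads ended at base 93, beside 3298 that started at base 94, but 451 ended at base 96, beside 2238 that started at base 97. Such ends were also seen at less-read starts. In dog 405 reads ended at base 96, beside 293 that started at base 97, and 411 ended at base 95, beside 210 that started at base 96. In horse 529 reads ended at base 95, beside 1557 that started at base 96. In bat 597 reads ended at base 92, beside 22656 that started at base 93. Only 13 bat reads ended at base 96, beside 5717 that started at base 97. A piece upstream of such a cut would be listed only if it were itself 24 to 32 nt long.

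The 3′ fragments hold a strand of the terminal stem. On the rebuilt sequence bases 1 to 9 face bases 110 to 118 in 9 pairs in a row, 7 of them Watson-Crick and 2 G-U pairs. The leading bat 3′ fragments carry bases 110 to 118. Whether the fragments were paired in the cell was not measured.

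Internal fragments were many in kind and few in reads. They made up 89.1% (dog), 91.7% (bat) and 90.8% (horse) of the different 5S fragments. Most possible 5S pieces of the listed lengths are internal by the region rule. The large number of kinds thus follows from that rule and is not a separate result. Their most-read starts were base 68 in dog (8.89% of internal reads), base 87 in bat (7.28%) and base 20 in horse (7.72%). The most-read internal fragment of dog, bases 68 to 96, had 292 reads, and that of horse, bases 20 to 49, had 306. In bat it was bases 91 to 118 with 837 reads, next to the region called the 3′ end. These internal fragments were singled out after their values were seen.

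Reads covered all 121 bases of 5S rRNA in each library. Coverage was highest at base 24 in dog and horse and at base 98 in bat. Between the end regions it was lowest at base 63 in dog and base 67 in bat and horse. In bat the highest coverage, 316343 reads, was 211 times the lowest of 1499, and in dog 20832 reads were 27.7 times the lowest of 753.

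Most of the possible 5S pieces were seen at least once. The 121 nt sequence holds 846 different pieces of 24 to 32 nt, of which 440 (52.0%) were found in dog, 564 (66.7%) in horse and 630 (74.5%) in bat. In all, 726 (85.8%) were found in at least 1 library. The 362 pieces found in all 3 libraries were 82.3% of the different 5S fragments of dog, 64.2% of those of horse and 57.5% of those of bat, and they held 98.2%, 97.6% and 96.8% of the 5S reads. The libraries thus shared the well-read fragments and differed in rare ones and in proportions. Fragments with a single read numbered 100 (dog), 103 (bat) and 81 (horse).

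Compared fragment by fragment, the bat excess at the 3′ end, over both listed strands, was larger than that of the sequences shared by the libraries in general. Of all 4000 sequences found in both the bat and dog lists, 78.4% were at least 2-fold higher in rpm in bat, with a median ratio of 7.09. The bat library is the smallest, so 1 read is worth 0.172 rpm there against 0.0242 in dog and 0.0279 in horse, which raises such ratios for rarely read sequences. Equal read counts in bat and dog give a ratio of 7.09, so this background median reflects library size. A sequence with equal counts also passes the 2-fold rule. Of the shared 5S fragments 319 of 380 (83.9%) were higher by that rule, a share near the background. The 26 shared 3′ fragments were all higher, with a median ratio of 904, whereas 16 of 21 shared 5′ fragments were, with a median of 7.42.

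The comparison of bat with horse, also over both listed strands, gave a similar division. Of the 4595 sequences found in both lists 75.3% were at least 2-fold higher in bat, with a median ratio of 6.15. Of the shared 5S fragments 366 of 475 (77.1%) were, with the same median of 6.15. That is the ratio that equal read counts in these 2 libraries give, so both medians reflect library size. The count over all 5S fragments was near the background share, and no conclusion is drawn from it. Among the 5S fragments 26 of 27 3′ fragments were higher, with a median ratio of 329, and 17 of 23 5′ fragments, with a median of 3.69. Between horse and dog, where 1 read is worth about as much, 40.7% of 15076 shared sequences were at least 2-fold higher in horse with a median ratio of 1.15. For 5S fragments it was 228 of 415 (54.9%) with a median of 2.31, made up of 19 of 26 3′ fragments, 13 of 22 5′ fragments and 196 of 367 internal ones.

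5.8S fragments came from different windows in dog and bat. In dog 1638 of 1748 reads (93.7%, interval 92.5 to 94.8) lay in the first window, 110 in the middle and 0 in the last. In bat 0 of 14577 reads lay in the first window, 8835 (60.6%, interval 59.8 to 61.4) in the middle and 5742 (39.4%) in the last. A count of 0 allows up to 3 reads, which is 0.515 rpm in bat and 0.0726 in dog. The dog fragments thus held the 5′ end of 5.8S rRNA and the bat fragments held parts further along, while the middle window was shared, at 569 times the rpm in bat (472 to 694) over both listed strands. Within the bat reads the middle window led the last by 1.54 times, and with only lengths of 26 to 32 nt the last window led, the ratio being 0.336.

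The dog 5.8S reads were held by few sequences, the 3 leading ones taking 74.0%. In dog fragment 1 to 27 had 607 reads (14.7 rpm), 2 to 27 had 347 (8.40 rpm) and 1 to 26 had 339 (8.20 rpm). None of these was listed in bat or horse. Dog starts in the first window were at base 1 in 62.2% of reads and base 2 in 37.2%, and ends were at base 27 in 58.7% and base 26 in 36.6%.

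Few listed sequences ran past the window edges. The windows were placed after the files had been searched, so this was favoured by how they were drawn and is not a separate result. Among all listed sequences that share at least 20 nt in a row with the first window, 0 ran past either edge and 0 were altered inside it, in all 3 libraries. For the middle window 3 bat reads ran past an edge and 1 dog read was altered inside. For the last window 100 bat reads ran past the 3′ edge and 1 past the 5′ edge. The horse library had 0 sequences of any of these kinds.

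The bat 5.8S fragments were spread over more sequences, with a leading start in each window. In the middle window base 58 was the start of 65.5% of reads. In the last window the base 35 from the 3′ end was the start of 68.4%, and T began 80.9% over all its starts. Fragment 58 to 82 had 3778 reads (648 rpm), the fragment 35 to 8 from the 3′ end had 2498 (429 rpm), and 58 to 81 had 1530 (262 rpm). The dog reads of the middle window instead started at base 61 in 93.6% and ended at base 84 in 87.3%. Only 5 fragments were found in both libraries, 31.3% of the different 5.8S fragments of dog and 5.32% of those of bat, and they held 6.01% and 0.556% of the 5.8S reads. Of these 5, all in the middle window, 4 were at least 2-fold higher in bat, beside the 78.4% for all shared sequences.

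5.8S fragments, counted only within their windows, were short on average, and 5S fragments were close to or above the library mean. The mean length of all listed reads was 29.4 nt (dog), 29.2 nt (bat) and 29.3 nt (horse). 5S reads averaged 30.2 nt in the dog library, 30.0 nt in that of bat and 29.0 nt in that of horse. 5.8S reads averaged 26.01 nt in dog and 26.4 nt in bat. In dog no 5.8S read was longer than 27 nt, whereas 30 nt was the commonest length of the library with 30.9% of its reads. The first window is itself 27 nt long, so a longer fragment could not be counted there.

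The length shares of the 5S reads did not follow those of their libraries. In dog 32 nt held 38.2% of 5S reads against 6.71% of all reads, and in horse it held 19.7% against 5.87%. In bat 31 nt held 30.9% of 5S reads against 14.1% of all reads, and 32 nt held 25.5% against 4.81%. The lengths that led in bat are those of the leading 3′ fragments 90 to 120 and 89 to 120.

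The first base, taken in RNA sense, followed the leading starts. G began 78.5% of 5S reads in dog, 69.4% in horse and 45.1% in bat. T, the base at which piRNAs commonly begin, began 8.14%, 11.6% and 7.22%. A sequence listed as the reverse complement, as most 5S reads were, begins instead with the complement of the last base. These shares thus do not describe the listed sequences. Counted over different fragments T began 29.1% in dog, 26.1% in horse and 24.9% in bat, against 20.6% of the 846 possible pieces.

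The strand on which fragments were listed went with region and species. Each fragment was listed on 1 strand only in a library. Most 5S reads were listed as the reverse complement, and the share in RNA sense was 12.05% for dog, 9.75% for bat and 34.3% for horse. Of 5′ fragments, those in RNA sense were 0% of dog reads, 99.99% of bat reads and 3.16% of horse reads. Of 3′ fragments they were 56.4% of dog reads, 0% of bat reads and 100% of horse reads. 5.8S reads were in RNA sense in 93.8% in dog and 0% in bat. The sources used here do not say what sets the listed strand, and fragments are described in RNA sense throughout. If a reverse listing stood for an RNA antisense to the rRNA, its ends would be exchanged.

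Fragments with 1 substitution, which the exact rule leaves out, were mostly altered at their last base in dog and bat. Substitutions are written as the rRNA base, its position on 5S rRNA and the listed base. In bat 424 such sequences held 8540 reads, 2.35% of exact and altered reads together, and the altered base was the last in 71.4% of them. In dog 98 sequences held 1418 reads (5.13%), with the altered base last in 75.7%. In horse 24 sequences held 83 reads (0.164%), with it last in 28.9%.

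Among substitutions inside the fragments, C105T had 777 reads in 32 sequences in bat, 0.246% of the reads over that base. C6G had 267 reads in 19 sequences in dog, a larger share at 1.37% of the reads over its base. At the last base of the molecule T121A had 899 reads in bat, 5.39% of the reads over it (5.06 to 5.75). In RNA sense it is the last base of every such fragment by the matching rule, which allows no base past 121. A base added to a fragment that ends 1 base earlier gives the same listed sequence, and these cannot be told apart.

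The mRNA libraries of dog and horse carried a 121 nt 5S rRNA model in the authors' deposited table. It stood at 263 TPM in dog (deposited bounds 131 and 445) and 28.4 TPM in horse (deposited bounds 1.98 and 133). TPM is a length-corrected abundance on a fixed total. The values were set by separate fits in each file and are not a measure of the fragments. The order, dog above horse, was opposite to that of the 5S fragments, and the deposited bounds of the models overlapped.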

How the data were processed

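Small RNA files hold, per the file headers, a sequence and its read count, 24 to 32 nt only. The mRNA files of dog and horse hold TPM values with bounds, made by the authors with RSEM, per the submitters' processing notes, which also name Bowtie and CanFam3.1 for all samples. The sources used here do not give adapter removal, filters or what sets the listed strand. The bat mRNA file was not used here.

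No rRNA sequence was supplied. The 5S sequence and 3 windows of 5.8S were rebuilt from the deposited sequences with at least 10 reads, by 20 nt overlaps, between starting and closing letters of 9 nt. Those letters, the order of the windows and their positions come from general knowledge of mammalian rRNA, not from a deposited file. The 5S rebuild closed at 121 nt (lowest vote for a base 94.8%). The planned full-length 5.8S rebuild did not close, since reads do not bridge it. The windows were therefore placed after the files had been searched with a 5.8S sequence recalled from general knowledge, a search not repeated in the kept computation. The 0 for horse, every 5.8S value and the setting with 1 substitution cover these windows only.

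Exact matches on either strand were summed. Levels in rpm use all listed reads of a file. Groups are species with 1 library each, so no test was made. Named fragments are the 3 most-read of each rRNA in each species, with the most-read starts and ends. The sequences and single values of the leading 5S fragments of dog and horse are not reported here. The members and lists were chosen with earlier results of these data known. The 5 other settings tried are given in the closing section. Computed with Python 3.11.15 and SciPy 1.17.1 and tested on simulated data.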

Additional observations from a re-analysis of the deposited data

Results flagged for a closer look

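Some reads run past the ends of the rebuilt 5S sequence and are outside the exact matches. They are listed because they lie in data the comparisons do not use and exceed 3 reads, the limit that a count of 0 allows. The letters beyond the end are in capitals in the sequences below. Past the 3′ end lay 65 reads (dog), 12 (bat) and 46 (horse). All 65 in dog had only T added, as had 23 in horse and 0 in bat. The most-read one had 46 reads in dog and 14 in horse.

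5S with added bases, dog: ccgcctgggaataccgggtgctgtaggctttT
5S with added bases, horse: taccgggtgctgtaggctttTGCCTCCC

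Before the 5′ end lay 24 reads (dog), 34 (bat) and 42 (horse), and the horse library's most-read one had 16.

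Past the last 5.8S window the bat library held 98 reads with a tail of at most 3 nt, and in all 98 the next base was A. The most-read one had 52 reads. The window stops short of the 3′ end of 5.8S rRNA. Whether the A was added or is the next base of the rRNA was not tested.

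5.8S last window with the next base, bat: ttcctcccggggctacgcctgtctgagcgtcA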

How the results depend on the processing

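Of the 5 other settings, 2 reversed results: counting only sequences listed in RNA sense, and only 26 to 32 nt. RNA sense only moved 5S to 76.4 rpm (dog), 5934 (bat) and 484 (horse), with ratios of 77.6 (bat to dog), 12.3 (bat to horse) and 6.33 (horse to dog), and 5.8S to 39.7 in dog and 0 in bat, so that 3 results had no value and the 5.8S ratio of bat to dog fell to at most 0.0130. The ratio for 3′ fragments of 5S fell to at most 0.0133 (bat to dog) and 0.00149 (bat to horse). Under it the 5′ share of 5S reads was 0% (dog), 91.1% (bat) and 5.54% (horse), and the 3′ share 50.5%, 0% and 71.6%, and 5′ over 3′ reads turned to at most 0.00188 in dog, at least 10503 in bat and 0.0774 in horse. Bounds take 3 reads for a count of 0. Which end leads in each species thus depends on counting both strands. With at most 1 substitution 5S stood at 669 in dog and 62324 in bat, with ratios of 93.2, 44.1 and 2.11 in the same order. With at least 10 reads per sequence it stood at 611, 60637 and 1376, with ratios of 99.3 and 44.1 for bat to dog and to horse. Levels with 26 to 32 nt only are per 1000000 listed reads of those lengths. In that setting 5S stood at 616, 58840 and 1276, with ratios of 46.1 (bat to horse) and 2.07 (horse to dog). There 5.8S stood at 31.9 in dog and 1344 in bat (ratio 42.1), and its middle share in bat at 25.2%, with middle over last reads at 0.336 in place of 1.54. With a 3′ overhang allowed 5S stood at 663 in dog and 61953 in bat, with ratios of 93.5, 43.9 and 2.13. Moved here means outside the counting interval, which is narrow at this depth. No paired analysis was possible because each species has 1 library.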
